A study of Mus musculus with 10 samples.

Results

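NRF2, the transcription factor encoded by Nfe2l2, and the genes of the antioxidant response that it controls were examined in cultured adipose stem and precursor cells (ASPCs). The set consisted of 10 genes chosen by name: Nfe2l2 and its inhibitor Keap1, 7 NRF2 targets (Gclc, Gclm, Slc7a11, Gsr, Txnrd1, Srxn1 and Hmox1), and Nqo1, which was kept apart because it is a target of both NRF2 and the aryl hydrocarbon receptor (AHR). All 10 were found among the 25229 rows of the count table, each in 1 row, and all 10 passed the filter on low counts that left 14251 genes for testing. The RNA came from CD45-CD31-Pdgfra+ cells sorted from the stromovascular fraction of perigonadal white adipose tissue (gWAT) of wild-type mice and grown to confluence without passaging. There were 5 libraries of cells given DMSO, the vehicle, and 5 of cells given 100 nM FICZ, a tryptophan photoproduct that binds AHR, both lysed 6 hr later, with libraries numbered 1 to 5 in either group. Both groups grew in one medium, which held serum, an ascorbic acid phosphate and an insulin, transferrin and selenium supplement. The sources used here give neither the age or sex of the mice nor whether libraries of a group came from separate animals or cultures, so p-values measure the spread between these libraries, which may in part be technical.

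In unstressed cells KEAP1 holds NRF2 in the cytoplasm and hands it to a CUL3 ubiquitin ligase, so that NRF2 protein is degraded as it is made. Oxidants and electrophiles modify cysteines of KEAP1, NRF2 then accumulates, pairs with a small MAF protein and binds the antioxidant response element (ARE), and its targets supply glutathione, thioredoxin reduction and quinone and heme detoxification. AHR, when bound by a ligand such as FICZ, binds its own element (AHRE) with ARNT, and Nqo1 is a textbook case of a gene with both kinds of element. NRF2 activity is set largely by protein stability, which the RNA level of Nfe2l2 does not report.

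The promoter letters are shown for 5 members so that their ARE and AHRE letters, the sequences NRF2 and AHR are known to bind, can be read directly. The windows run from 250 bases before to 50 bases after the RefSeq start on GRCm38.p6, the assembly of mm10, are written 5′ to 3′ on the gene's strand, and were found for 7 of the 10 members (not for Hmox1, Gclc and Gsr). Capitals mark 3 motifs searched on both strands: the ARE core TGACNNNGC, its variant TGAGNNNGC, and the AHRE core GCGTG.
Nqo1, chr8:107403156-107403455, minus strand: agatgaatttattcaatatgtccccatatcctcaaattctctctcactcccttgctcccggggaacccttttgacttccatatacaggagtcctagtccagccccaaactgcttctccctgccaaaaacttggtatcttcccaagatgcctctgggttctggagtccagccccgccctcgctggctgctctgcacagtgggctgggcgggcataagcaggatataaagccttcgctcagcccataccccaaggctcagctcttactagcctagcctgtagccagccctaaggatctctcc
Nfe2l2, chr2:75704614-75704913, minus strand: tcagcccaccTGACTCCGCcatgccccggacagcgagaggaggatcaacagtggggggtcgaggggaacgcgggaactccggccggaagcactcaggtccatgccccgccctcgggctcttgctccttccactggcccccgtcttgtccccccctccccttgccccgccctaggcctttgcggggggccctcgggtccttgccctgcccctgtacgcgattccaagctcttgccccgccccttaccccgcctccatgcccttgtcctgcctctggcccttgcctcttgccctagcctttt
Srxn1, chr2:152105274-152105573, plus strand: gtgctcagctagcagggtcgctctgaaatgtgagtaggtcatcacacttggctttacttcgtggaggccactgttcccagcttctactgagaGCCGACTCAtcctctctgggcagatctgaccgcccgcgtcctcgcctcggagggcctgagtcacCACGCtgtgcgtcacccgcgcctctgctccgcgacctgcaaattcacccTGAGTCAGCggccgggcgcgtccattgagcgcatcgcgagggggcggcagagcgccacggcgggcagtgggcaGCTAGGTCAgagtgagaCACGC
Gclm, chr3:122245307-122245606, plus strand: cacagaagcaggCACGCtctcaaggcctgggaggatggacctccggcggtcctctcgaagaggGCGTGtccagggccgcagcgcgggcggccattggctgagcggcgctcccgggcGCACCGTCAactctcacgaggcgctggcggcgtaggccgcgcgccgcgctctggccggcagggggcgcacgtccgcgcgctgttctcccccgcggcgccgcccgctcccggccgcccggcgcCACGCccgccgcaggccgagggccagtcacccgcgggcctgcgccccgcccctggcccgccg
Txnrd1, chr10:82858956-82859255, plus strand: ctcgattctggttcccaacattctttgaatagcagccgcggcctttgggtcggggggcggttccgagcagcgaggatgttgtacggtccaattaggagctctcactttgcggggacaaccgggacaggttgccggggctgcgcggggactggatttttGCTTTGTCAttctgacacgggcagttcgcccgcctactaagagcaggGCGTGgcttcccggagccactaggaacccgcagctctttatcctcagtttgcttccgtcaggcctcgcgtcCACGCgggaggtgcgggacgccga
The Nqo1 window held none of the 3 motifs, which says only that these letters are not in this window. The Nfe2l2 window held an ARE core 240 bases before the start and no AHRE core, and the Srxn1 window held an ARE core and 2 ARE variants beside 2 AHRE cores. Gclm had 1 ARE core and 3 AHRE cores, and of the 3 Txnrd1 windows the one printed was the one with an ARE core. The printed Txnrd1 window also held 2 AHRE cores, and each of the other Txnrd1 windows held 1 AHRE core and neither ARE motif. Slc7a11 had 1 ARE variant alone, and Keap1 2 AHRE cores alone. Of all 32851 promoter windows, 12.4% held the ARE core, 17.6% the variant, 27.8% at least one of them and 32.4% the AHRE core, so that a match in a single promoter is common.

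All 10 genes were well counted in every library, from 1999 for Keap1 in DMSO replicate 5 to 70872 for Txnrd1 in FICZ replicate 2. Levels are given as CPM, the counts of a gene as a share of its library after scaling by the TMM factors, and are compared between genes only per kilobase of annotated exon. On that scale Hmox1, heme oxygenase, was the most abundant in DMSO (302 ± 133 CPM per kb, SD, n = 5). Srxn1 (186 ± 70.4), Nqo1 (161 ± 41.3) and Txnrd1 (138 ± 62.1 CPM per kb) followed, and these 4 genes overlapped within 1 SD of each other. Nfe2l2 stood below them at 68.1 ± 4.46 CPM per kb and above Gclm (44.4 ± 12.9), Gclc (39.7 ± 8.09) and Gsr (31.6 ± 7.53), which overlapped among themselves. The lowest were Keap1 at 16.2 ± 4.36 and Slc7a11 at 9.91 ± 5.27 CPM per kb, which also overlapped. Exon lengths were those of all annotated exons together, 13922 bases for Slc7a11, so genes with long alternative exons are placed low.

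Nfe2l2 RNA was about 1.21-fold higher with FICZ, and its lowest FICZ library lay above its highest DMSO library. Nfe2l2 (chromosome 2, 75675513 to 75704641) had 264, 244, 255, 244 and 285 CPM in DMSO replicates 1 to 5 and 322, 293, 314, 325 and 313 CPM in FICZ replicates 1 to 5. It was the only one of the 10 genes whose groups did not overlap, while over all genes tested 0.351% lay apart with FICZ higher. The DMSO mean was 258 ± 16.9 CPM and the FICZ mean 313 ± 12.5 CPM (SD, n = 5 each), and the log2 fold change was 0.28 with a 95% interval from 0.12 to 0.43. In an exact permutation test on log2 CPM, two-sided, p was 0.00794, the smallest that 5 libraries against 5 allow. After adjustment it was 1, as for every gene tested, so the adjusted value of this test says nothing of Nfe2l2 in particular. In edgeR's quasi-likelihood test the unadjusted p was 0.0022 and the adjusted p 0.999, and in DESeq2 the adjusted p was 0.151, so Nfe2l2 did not pass the threshold of 0.05 over all genes.

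Keap1, which encodes the adaptor that presents NRF2 for degradation, had no common direction. Its CPM (chromosome 9, 21229730 to 21239361) was 90.0, 87.6, 86.9, 73.7 and 41.0 in DMSO replicates 1 to 5 and 88.0, 87.8, 61.7, 87.2 and 90.4 in FICZ replicates 1 to 5. The low libraries were DMSO replicate 5 and FICZ replicate 3, and the other 8 lay between 73.7 and 90.4 CPM. In 3 of the 5 pairs that share a number Keap1 was higher with FICZ, with a log2 fold change of 0.13 (95% interval -0.29 to 0.56, edgeR adjusted p = 0.999), and without DMSO replicate 5 it was -0.026. DMSO replicate 5 was also the library with the highest sums of the hepatocyte, macrophage and mature adipocyte markers, whose part in the Keap1 value was not tested. Exons of an antisense gene overlap 510 of the 4693 exonic bases of Keap1, and whether the authors' counting used strand is not given in the sources used here.

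**Figure D1:**
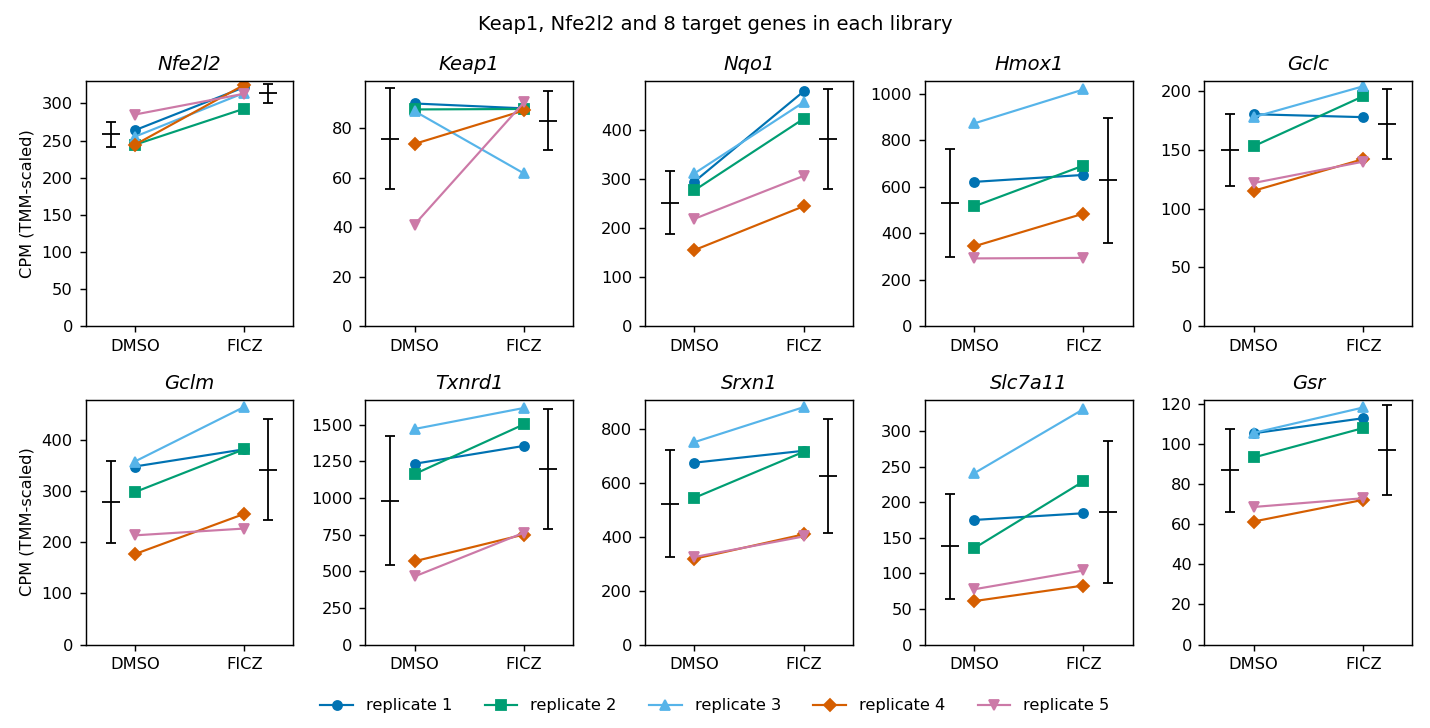
Level of each of the 10 genes in CPM (y axis, from 0) in DMSO and FICZ libraries, with a line joining the libraries of the same replicate number and black bars for the group mean ± SD (n = 5). The Nfe2l2 groups lie apart (at most 285 CPM in DMSO and at least 293 CPM in FICZ), whereas the targets spread by replicate number with the lines rising within most pairs.

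Nqo1, the quinone reductase shared by AHR and NRF2, was 1.52-fold higher with FICZ and was the only one of the 10 genes to pass the threshold in any fit on all libraries, which it did only with the replicate number as a block. Nqo1 (chromosome 8, 107388225 to 107403206) had 294, 276, 311, 155 and 218 CPM in DMSO replicates 1 to 5 and 478, 422, 456, 244 and 306 CPM in FICZ replicates 1 to 5. FICZ replicate 4 was lower than DMSO replicates 1, 2 and 3, and FICZ replicate 5 lower than DMSO replicate 3, so the groups overlapped, yet every FICZ library was above the DMSO library of its own number. The log2 difference within pairs 1 to 5 was 0.70, 0.61, 0.55, 0.66 and 0.49. Without a block the log2 fold change was 0.60 (standard error 0.22, 95% interval 0.12 to 1.09, edgeR adjusted p = 0.999). The exact two-sided permutation p was 0.0635, or 1 after adjustment, a value that every gene tested had in that test.

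Blocking on the number left the log2 fold change of Nqo1 at 0.60, and its standard error fell to 0.06 (95% interval 0.46 to 0.74). The adjusted p was then 0.0352 in edgeR, where 0.0561% of genes passed, and 1.12e-09 in DESeq2, where 0.14% passed. When each pair was left out of the fit with the block, the log2 fold change of Nqo1 ranged from 0.57 to 0.62 and the adjusted p from 0.0145, without pair 5, to 0.422, and 1 of the 5 fits passed the threshold. No exonic base of Nqo1 is overlapped by another gene, and none of its 50-base words occurs in transcripts of other genes.

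**Figure D2:**
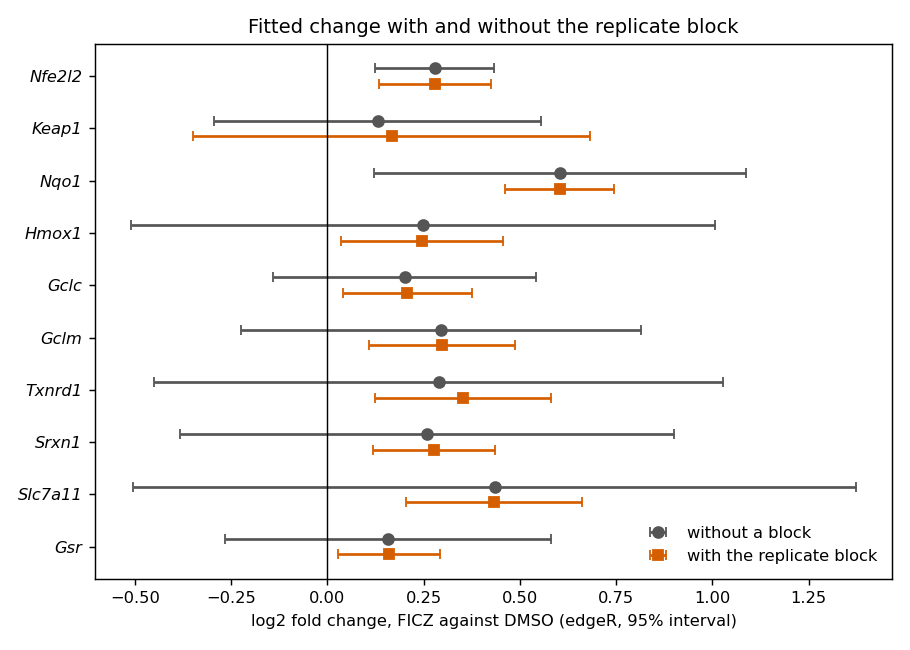
Log2 fold change of FICZ against DMSO (x axis) for the 10 genes in edgeR's fit without a block (grey circles) and with a block for the replicate number (orange squares), with 95% intervals. The points hardly move between the fits, and the intervals narrow with the block for every gene but Keap1. With the block 9 of the 10 intervals, which are not adjusted over genes, lie above 0. In that fit 2.48% of all genes tested had an unadjusted p of 0.05 or less with FICZ higher and 2.17% with FICZ lower.

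The 7 NRF2 targets kept apart from Nqo1 had a higher mean with FICZ in each case, by 1.12- to 1.35-fold, and none passed the threshold with or without the block. All 10 genes had a positive log2 fold change in both fits, as did 53.8% of all genes tested without the block and 55% with it. The median log2 fold change of the 7 was 0.26, beside 0.01 over all genes tested, and 0.28 with the block. Without a block it was 0.12 when FICZ replicate 3 was left out and 0.43 when DMSO replicate 3 was left out. In edgeR without a block none of the 7 had an unadjusted p of 0.05 or less, and of the 10 genes Nfe2l2 and Nqo1 did, where 1.33% of all genes did so with FICZ higher and 3.49% with FICZ lower. With the block all 7 did, and 9 of the 10 genes, where 2.48% of all genes did so with FICZ higher and 2.17% with FICZ lower. Of the 7 targets 6 were higher with FICZ in all 5 pairs, and of the 10 genes 8 were, while 4.32% of all genes tested were, and 2.81% were lower in all 5. Without pair 5, chosen after the data were seen, 8 of the 10 genes were higher in all 4 remaining pairs, beside 8.88% of all genes. The 7 targets and Nqo1 varied together between replicate numbers, so the genes counted here are not independent of each other. The number of the 10 genes past the threshold was 0 in edgeR without a block, in DESeq2 without a block and in limma-voom, and 1 with the block. Of all genes edgeR without a block placed 0.0211% past the threshold, DESeq2 without a block 0.0845%.

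Of the 7 targets, 4 serve glutathione, and none of the 4 passed the threshold. Slc7a11 (chromosome 3, 49892526 to 50443614), the cystine transporter that supplies cysteine for glutathione and is also an ATF4 target, had 175, 135, 241, 61.0 and 77.6 CPM in DMSO replicates 1 to 5 and 185, 229, 331, 82.9 and 104 CPM in FICZ replicates 1 to 5. It was highest in replicate 3 and lowest in replicate 4 of both groups. Its log2 fold change of 0.43 was the largest of the 7, with a standard error of 0.43 that fell to 0.10 with the block (edgeR adjusted p = 0.637 with the block, and 0.0819 in DESeq2 with the block). Without a block it was 0.12 when FICZ replicate 3 was left out, below Gclm (0.16), Txnrd1 (0.16) and Gclc (0.13), and 0.73 when DMSO replicate 3 was left out.

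Gclc and Gclm encode the catalytic and the modifier subunit of glutamate-cysteine ligase, the first enzyme of glutathione synthesis. Gclc (chromosome 9, 77754535 to 77794485) had 180, 153, 178, 115 and 122 CPM in DMSO and 178, 196, 204, 142 and 140 CPM in FICZ, in the order of the replicate numbers. It was the only one of the 7 with a lower FICZ library in a pair, pair 1, where the log2 difference was -0.020. Gclm (chromosome 3, 122245557 to 122270732) had 348, 298, 358, 177 and 214 CPM in DMSO and 382, 382, 465, 256 and 227 CPM in FICZ. Both subunits were low in replicates 4 and 5 of both groups. The log2 fold change with the block was 0.21 (95% interval 0.04 to 0.37) for Gclc and 0.30 (95% interval 0.11 to 0.49) for Gclm. Of the 6291 exonic bases of Gclm 244 are overlapped by a pseudogene on the same strand and 296 by a transcript on the other, and 4.58% of its 50-base words occur in transcripts of other genes.

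Gsr (chromosome 8, 33652523 to 33698163), the reductase that regenerates glutathione, had 105, 93.4, 106, 61.4 and 68.7 CPM in DMSO and 113, 108, 118, 72.2 and 73.0 CPM in FICZ. It had the smallest fold change of the 7, 0.16 on the log2 scale, and its pair differences were all between 0.09 and 0.23.

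Of the thioredoxin branch, Txnrd1 (chromosome 10, 82833951 to 82897712) encodes the cytosolic thioredoxin reductase, a selenoprotein. It had 1234, 1164, 1472, 568 and 465 CPM in DMSO and 1356, 1503, 1615, 751 and 764 CPM in FICZ. Replicates 4 and 5 of both groups had less than each of the other libraries, and the largest pair difference was 0.72 in pair 5. Without pair 5 the log2 fold change with the block was 0.25, against 0.35 with all pairs. Srxn1 (chromosome 2, 152105516 to 152111376), sulfiredoxin, which repairs overoxidised peroxiredoxins, had 676, 545, 752, 319 and 325 CPM in DMSO and 721, 717, 883, 410 and 402 CPM in FICZ. Its pair differences were between 0.09 and 0.39, with a log2 fold change of 0.28 with the block (95% interval 0.12 to 0.44, edgeR adjusted p = 0.736).

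Hmox1 (chromosome 8, 75093621 to 75100589), which breaks down heme and is held down by BACH1, had 620, 515, 872, 343 and 291 CPM in DMSO and 650, 690, 1018, 484 and 293 CPM in FICZ. It differed more between replicate numbers than between treatments, and in pair 5 the log2 difference was 0.01. The fold change on the log2 scale was 0.24 with the block (95% interval 0.03 to 0.46) and 0.25 without it (95% interval -0.51 to 1.01). Leaving out 1 library from the fit without a block gave values from 0.0040, without FICZ replicate 3, to 0.51, without DMSO replicate 3.

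Nqo1 and the 7 other targets can be set side by side within pairs. The median log2 difference of the 7 was 0.09, 0.37, 0.22, 0.40 and 0.20 in pairs 1 to 5, and that of Nqo1 lay above it in all 5, by 0.24 to 0.61. In 3 of the 5 pairs Nqo1 had a larger difference than each of the 7, and in pair 2 it was below Slc7a11 and in pair 5 below Txnrd1. A log2 fold change of the size of Nqo1 or larger was found for 0.849% of all genes tested. Whether Nqo1 differed from the 7 in its response was not tested, because the genes were chosen with results of these libraries known.

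**Figure D3:**
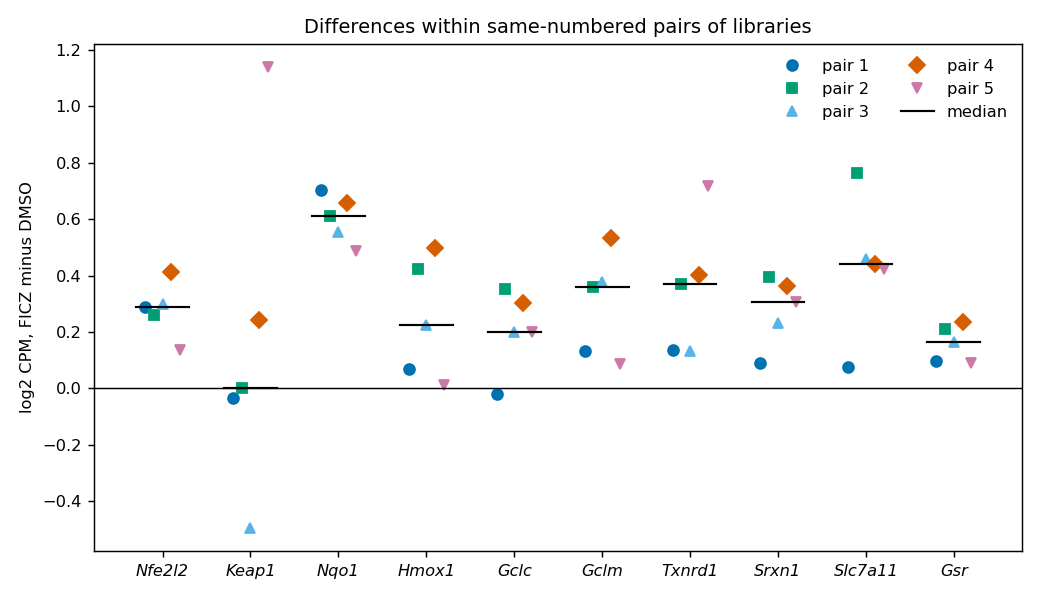
Log2 CPM of the FICZ library minus that of the same-numbered DMSO library (y axis) for each of the 10 genes, with 1 symbol per pair and a bar at the median of 5 pairs. Nqo1 lies between 0.49 and 0.70 in all pairs, the 7 other targets lie mostly between 0 and 0.5, and Keap1 spreads from -0.49 to 1.14.

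Replicate number, rather than treatment, accounted for most of the spread of the 7 targets. The sum of squares of log2 CPM over the 10 libraries was divided into a part between numbers, a part between FICZ and DMSO and a remainder, as a description. There were more numbers than treatments, which by itself makes the part between numbers larger. The parts of the 7 are therefore set beside the medians over all genes tested. For the 7 targets the part between numbers was between 79.7% (Gclc) and 93.4% (Gsr), with a median of 90.0%, beside a median of 58.1% over all genes tested, and 19.8% of all genes were at or above the value of Gclc. The part between treatments had a median of 8.02% for the 7, beside 4.35% over all genes. Nqo1 was divided into 59.8% between numbers and 39.6% between treatments, with a remainder of 0.631%. Nfe2l2 had the reverse order, with 11.7% between numbers and 80.2% between treatments, and for Keap1 the remainder was 60.4%.

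The mean of the 2 libraries of a number, on the log2 scale, was below the gene's own mean in numbers 4 and 5 and above it in numbers 1, 2 and 3 for each of the 7 targets and for Nqo1. Between the highest and the lowest number the distance was 1.99 for Slc7a11, 1.69 for Hmox1, 1.37 for Txnrd1 and 1.17 for Srxn1. The distance was 0.94 for Gclm, 0.75 for Gsr and 0.57 for Gclc, and 0.95 for Nqo1. It was 0.16 for Nfe2l2, beside a median of 0.43 over all genes tested. The sum of 9 ASPC markers was also unequal between numbers. It lay between 6139 and 6283 CPM in DMSO replicates 1, 2 and 3 and was 8529 and 7501 CPM in DMSO replicates 4 and 5. In FICZ it lay between 5632 and 6576 CPM in replicates 1, 2 and 3 and was 7915 and 7271 CPM in replicates 4 and 5, and its part in the levels of the NRF2 targets was not tested. In bulk libraries a change in the make-up of the cells cannot be told apart from a change in RNA per cell.

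**Figure D4:**
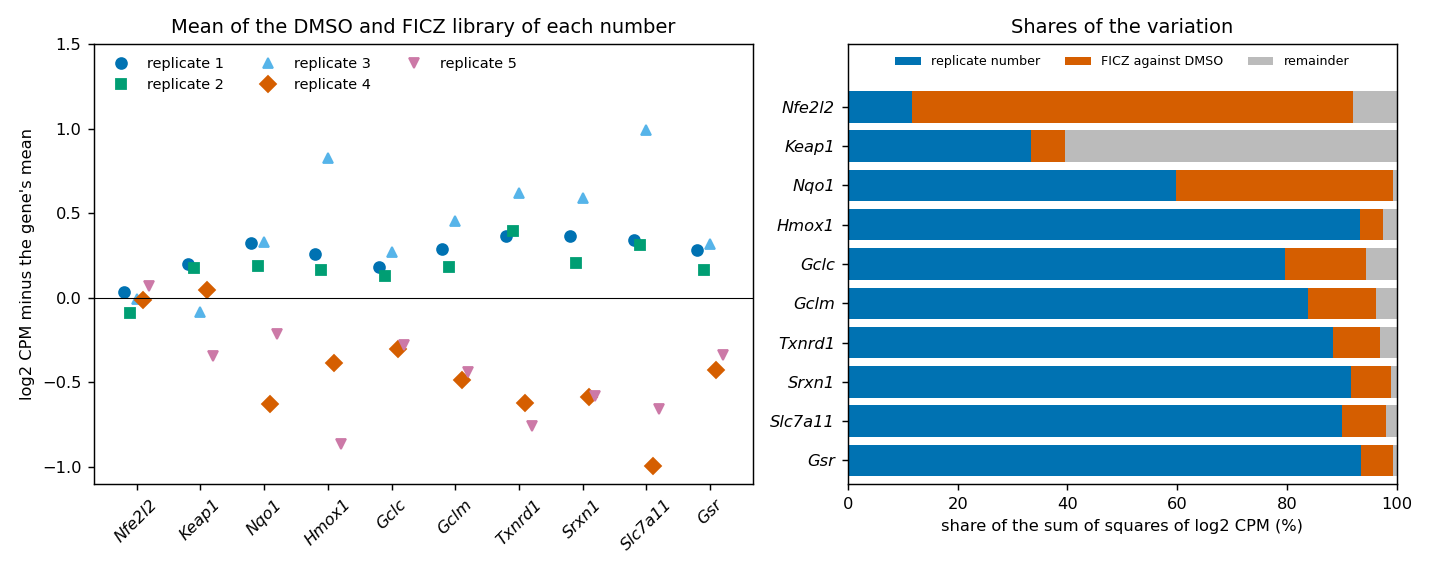
Left, mean log2 CPM of the DMSO and FICZ library of each replicate number minus the gene's mean over 10 libraries (y axis), 1 symbol per number. Right, share of the sum of squares of log2 CPM in percent (x axis) between replicate numbers, between FICZ and DMSO, and left over: number takes at least 79.7% for the 7 targets, and treatment 80.2% for Nfe2l2.

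Other genes of the pathway were read from lists chosen with earlier results known. With the replicate block none passed the threshold in the lists of NRF2 regulators (11 of 12 genes tested), glutathione genes (28 of 29), thioredoxin, peroxiredoxin, superoxide dismutase and catalase genes (15 of 15), NADPH enzymes (6 of 6), heme and iron genes (7 of 7) and other NRF2 targets (10 of 10), nor did any without it. Over all genes tested 0.0561% passed with the block and 0.0211% without it, so the lack of a passing gene says little about a list. The median log2 fold change with the block was 0.09 for the regulators, -0.01 for the glutathione genes, -0.02 for the thioredoxin and peroxide genes, 0.08 for the NADPH enzymes, 0.06 for the heme and iron genes and 0.14 for the other NRF2 targets. At an unadjusted p of 0.05 or less with the block there were 2 glutathione genes, 1 NADPH enzyme, 1 heme and iron gene and 2 other NRF2 targets, all with a higher mean in FICZ, where 2.48% of all genes did so with FICZ higher and 2.17% with FICZ lower, and no regulator and no thioredoxin or peroxide gene.

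Among the regulators the smallest unadjusted p-values in edgeR without a block were those of Btrc, an F-box protein of an NRF2 ubiquitin ligase (log2 fold change 0.14, standard error 0.09), and Cul3, the scaffold of the ligase that KEAP1 joins (0.11, standard error 0.09). For the glutathione list they were Gstt1, a glutathione transferase (-0.51, standard error 0.28), and Abcc4, an efflux pump (0.29, standard error 0.17). Gstt1 was highest in DMSO replicate 5, at 41.5 CPM. That library also had the highest sum of hepatocyte markers, whose part in the Gstt1 value was not tested. The thioredoxin list gave Txnrd2, the mitochondrial thioredoxin reductase (-0.11, standard error 0.10), and Txnrd3 (0.09, standard error 0.11). Pgd, an NADPH-making enzyme of the pentose phosphate pathway, had 0.21 (standard error 0.17) and Fth1, the ferritin heavy chain, 0.09 (standard error 0.10). Akr1b8, an aldo-keto reductase, had 0.14 (standard error 0.07) and Slc6a9, a glycine transporter, 0.26 (standard error 0.14), and both were higher with FICZ in all 5 pairs. Each of these genes had an adjusted p of 0.999 in edgeR's test. Gsta1, a glutathione transferase, and Slc48a1, a heme transporter, are named because they had an unadjusted p of 0.05 or less with the block, and were chosen after their values were seen (log2 fold change with the block 0.69 and 0.15). Gsta1 had between 10 and 115 counts per library.

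Of 8 AHR targets tested, 3 passed the threshold in edgeR without a block and 2 with it (the third, Tiparp, named after its values were seen, had an adjusted p of 0.0509 with it), and 5 were higher with FICZ in all 5 pairs. Over all genes tested 0.0211% passed without the block and 0.0561% with it, and 4.32% were higher in all 5 pairs. The median log2 fold change of the 8 AHR targets was 0.77 without the block and 0.76 with it. Cyp1a1, a cytochrome P450, had a log2 fold change of 3.25 (edgeR adjusted p = 0.0189) and Ahrr, the AHR repressor, of 1.66 (edgeR adjusted p = 0.00324). Cyp1a2, a cytochrome P450 named after its values were seen, was the 1 gene of the list with an unadjusted p of 0.05 or less and a lower mean in FICZ without the block. Its log2 fold change was -1.11 (standard error 0.43, edgeR adjusted p = 0.999), and it was higher with FICZ in 2 of the 5 pairs. The 12 hepatocyte markers had a median log2 fold change of -1.11 without the block, and their sum was also higher with FICZ in 2 of the 5 pairs. Whether hepatocyte RNA had a part in the Cyp1a2 value was not tested. Ahrr and Cyp1a1 had 91.9% and 88.2% of their sum of squares between treatments. Of the other genes that AHR and NRF2 are held to share, chosen here after their values were seen, Aldh3a1, an aldehyde dehydrogenase, averaged 0.317 ± 0.213 CPM with DMSO and 0.765 ± 0.2 CPM with FICZ (SD, n = 5 each, 3 to 47 counts per library) and was higher in all 5 pairs. Ugt1a6a, a glucuronosyltransferase, had 31.1 ± 7.09 and 29.7 ± 2.61 CPM (SD, n = 5 each) and was higher in 2 of the 5. Because Slc7a11 is also controlled by ATF4, that list was read as well. None of its 10 genes passed the threshold with or without the block. None had an unadjusted p of 0.05 or less in either edgeR fit. Of all genes tested 1.33% had such a p with FICZ higher and 3.49% with FICZ lower in the fit lacking a block. Blocking on the number gave 2.48% and 2.17%. In a list of 10 genes their absence therefore says little about ATF4. The list had a median log2 fold change of -0.04 in the unblocked fit, while the blocked fit gave -0.00099. The smallest unadjusted p-values were those of Atf5 (-0.13, standard error 0.13) and Trib3 (-0.18, standard error 0.26), both with an adjusted p of 0.999 in edgeR. Whether ATF4 had a part in the Slc7a11 value was not tested.

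**Figure D5:**
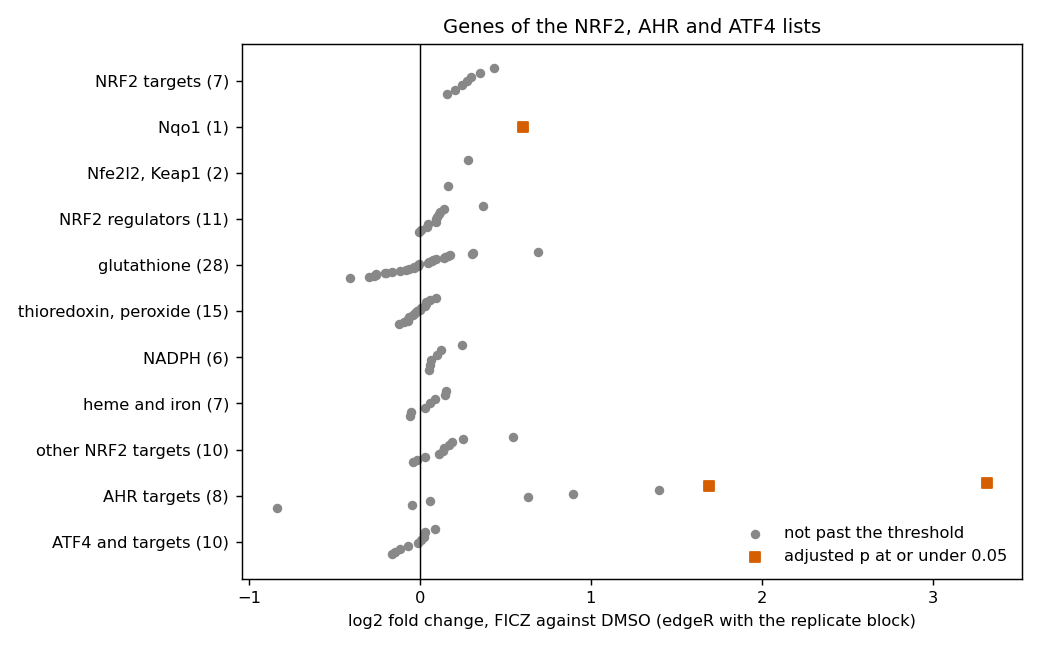
Log2 fold change of FICZ against DMSO in edgeR with the replicate block (x axis) for each gene tested in 11 lists (number of genes in brackets), orange squares marking an adjusted p at or under 0.05. Nqo1, Cyp1a1 and Ahrr are the genes marked, and the 7 NRF2 targets lie between 0.16 and 0.43.

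The genes whose log2 CPM over the 10 libraries was most like that of Nqo1 were Mfap3l (Pearson r = 0.96), Panx1, Pcdhac2, Fut8 and Serpinb2 (r = 0.95), as a description over libraries that share numbers and treatments. Among the members Gclm was nearest to Nqo1 (r = 0.89, in place 33 of all genes tested). For Nfe2l2 they were Slc14a1 (r = 0.92), Tank, Mmp8, Efcab7 and Ahrr (r = 0.88), and the r of Nfe2l2 with the 7 NRF2 targets was between 0.07 and 0.26.

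Total counts per library were between 38328611 and 50210111, at which 3 counts, taken as the floor, correspond to at most 0.0787 CPM by counting error alone. The sorted cell type was checked by its markers: Pdgfra averaged 1320 ± 88.3 CPM with DMSO and 1387 ± 118 CPM with FICZ (SD, n = 5 each), and the genes of the antigens sorted against had 7 to 83 counts per library for Ptprc (CD45) and 22 to 79 for Pecam1 (CD31). All 12 hepatocyte markers were counted in every library, with a summed level between 1698 and 9899 CPM in DMSO and between 1821 and 2469 CPM in FICZ, and a lower mean in FICZ for all 12. All 14 macrophage markers were also counted in every library, at 28.1 to 71.7 CPM in DMSO and 27.6 to 40.6 CPM in FICZ. Of 7 mature adipocyte markers Lep had no count in any library, and the sum was 25.0 to 149 CPM in DMSO and 28.3 to 43.3 CPM in FICZ. The 6 endothelial markers summed to 64.7 to 87.1 CPM and 69.4 to 84.3 CPM. The sums of the hepatocyte, macrophage and adipocyte markers were each highest in DMSO replicate 5. Without that library, in edgeR without a block, the log2 fold change was 0.32 for Nfe2l2, 0.56 for Nqo1, 0.11 for Txnrd1 and 0.094 for Hmox1, while with the block and without pair 5 these were 0.31, 0.62, 0.25 and 0.30.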

How the data were processed

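Bulk RNA sequencing was analysed for 5 DMSO and 5 FICZ libraries of cultured ASPCs. The authors aligned reads with STAR 2.7.7 to mm10 and deposited whole-number counts for each gene symbol, not normalized. The counting program, annotation and strand setting are not given in the sources used here.

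Counts were tested over the whole table with edgeR 4.0.16 in R 4.3.3 (quasi-likelihood test, TMM, robust dispersions, filter by expression), with Benjamini-Hochberg adjustment over 14251 genes and a threshold of 0.05. Standard errors were derived from the F statistic. The exact permutation test, two-sided and on log2 CPM (prior count 2), used all 252 arrangements and the same adjustment. Sign flips of 5 pairs cannot give a p below 0.0625 and were not used. Deviations from the group mean were positively correlated across genes in every same-numbered pair of libraries (0.15 to 0.32, mean 0.25). For this reason fits with the replicate number as a block are given beside those without it, a choice made from these same data. The mean for other pairs was -0.06. Deviations cancel within each group, so that mean is tied to the one for same-numbered pairs and is no separate check. The labels do not say what the number stands for. Alternatives were DESeq2 1.42.0 and limma-voom (limma 3.58.1), other normalizations, filters and thresholds, and leaving out each library or pair. The scripts were tested on simulated data in which replicate numbers were set to differ less than they did for the NRF2 targets. That is no check of the fits at the spread of those targets. Gene coordinates, exon lengths and overlaps came from GENCODE vM21 (GRCm38) and promoters from RefSeq (GRCm38.p6).

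The members, gene lists and tests were chosen with earlier results of these data known. The genes named were all members, the 1 or 2 genes of each list with the smallest unadjusted p, and the 5 genes most correlated with Nqo1 and with Nfe2l2. Other names are marked as chosen after their values were seen.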

Additional observations from a re-analysis of the deposited data

Results flagged for a closer look

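The level of each of the 10 genes was examined in both groups of 5 libraries for a single library far from the others. Of 20 such groups 1 was flagged, where chance flags about 1 in 20. Keap1 was lowest in FICZ replicate 3 with 61.7 CPM, the nearest library of its group had 87.2 CPM, and the gap was 0.887 of the group's whole range.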

How the results depend on the processing

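For the 9 genes other than Nqo1, 232 of 234 values under the alternatives kept their direction and stayed short of the threshold. The exceptions were Keap1, whose log2 fold change ran from -0.026 without DMSO replicate 5 to 0.22 without FICZ replicate 3, and in the fit with the replicate block from -0.076 without pair 5 to 0.33 without pair 3, and the cause was not tested. Other normalizations, filters, the looser threshold of 0.1, dispersions without the robust option and limma-voom changed no call of a member. That looser threshold was applied to edgeR without a block only, and it leaves the log2 fold changes as they were. In DESeq2 with the replicate block Slc7a11 had an adjusted p of 0.0819, which is under 0.1. With the replicate block, edgeR placed 8 genes and 1 member past the threshold and DESeq2 26 genes and 1 member, and the log2 fold change of Nqo1 was 0.60 in both. DESeq2 without a block placed 16 genes past it, against 3 in edgeR, and no member. Leaving out each library in turn gave 1 to 4 genes past the threshold (1 without DMSO replicate 1 or 2 or FICZ replicate 1, 2 or 3) and 0 members, a log2 fold change of Nqo1 from 0.47 to 0.73, and a median of the 7 NRF2 targets from 0.12 without FICZ replicate 3 to 0.43 without DMSO replicate 3. That median was also 0.13 without DMSO replicate 4 and without DMSO replicate 5, and 0.40 without FICZ replicate 5. Leaving out each pair in the fit with the replicate block gave 1 gene past the threshold without pair 1, 2 without pair 2, 3 or 4 and 8 without pair 5, 0 to 1 members (1, Nqo1, without pair 5), 0.57 to 0.62 for Nqo1 and 0.24 to 0.31 for the median. The block changed no other call of a member. Depth was no limit for the 10 genes, whose lowest count was 1999.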
